A study of Mus musculus with 9 samples.

Results

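The liver glucose metabolism isozymes are 7 genes, Pck1, Fbp1, Pklr, Gys2, Pygl, Slc2a2 and Khk, chosen by name as the forms of glucose-handling enzymes and transporters that the liver uses, out of 50389 gene features in the tables of 9 tumors. All 7 were found in every table, and all 7 passed the filter on low values. Their levels were set beside those of Hk2, Aldoa and Pkm, the forms that dividing tumor cells use. The tumors came from Hepa1-6 cells, a mouse hepatoma line, grown first under the skin and then implanted as small pieces into the left liver lobe of male C57BL/6 mice aged 6 to 8 weeks when bought. All mice had 5 intraperitoneal injections, 1 every 4 days from day 10 to day 26, and whole tumors were taken on day 27 after the surrounding tissue was trimmed off. The PBS tumors (n = 3) came from mice given PBS, and the other 6 from mice given anti-PD-1 antibody (clone RMP1-14). Of the antibody-treated tumors, the 3 largest were called nonresponsive and the 3 smallest responsive, with those between left out, so response and tumor size cannot be told apart. Each tumor is 1 mouse and 1 bulk RNA library, all 9 carry the same cell line, and the labels name no engineered allele.

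Hepatocytes hold blood glucose steady by storing it as glycogen after a meal and by releasing it in fasting. They do so with isozymes of their own. Liver forms of the transporter, pyruvate kinase, glycogen synthase and glycogen phosphorylase follow blood glucose, glucagon and insulin, whereas proliferating cells and most hepatomas carry forms such as Hk2 and Pkm that draw glucose into glycolysis. Loss of the liver forms is a long-known feature of hepatoma cells.

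Values are FPKM, mapped fragments adjusted for the length of the transcript and the size of the library, and differences are on the scale of log2(FPKM + 1), which understates the change of genes at low FPKM. Groups were compared with limma's moderated test over all genes, and a gene was called when its Benjamini-Hochberg adjusted p was under 0.05. Fragments sequenced per tumor are not stated in the sources used here, so depth can only be compared between tumors. Judged by the steps between low FPKM values, it lay between 0.936 and 1.07 times that of PBS tumor 1. Entries that name no gene held 19.2% to 81.5% of the summed FPKM of a tumor. The 16 hepatocyte marker genes, albumin among them, were detected in every tumor, with a summed FPKM of 631 to 7103 in PBS tumors, 4569 to 15458 in nonresponsive tumors and 12748 to 26484 in responsive tumors. Only the periportal marker Sds was listed at 0 in all 9 tumors among the 3 hepatocyte lists (general, periportal and pericentral). In bulk tissue, fewer hepatocytes or liver-like cells and less RNA per cell cannot be told apart.

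RefSeq promoter windows on mouse GRCm38.p6, taken as the 250 bases before each annotated start, were at hand for 6 of the 7 genes. A pair of them is shown because Pck1 holds 2 of the motifs looked for and Slc2a2, which had the smallest p of the 7 between responsive and nonresponsive tumors, holds none. The Pck1 run, cut where exon 1 of Pck1 begins in the GENCODE annotation, is chr2:173152823-173153047, plus strand. The Slc2a2 run is chr3:28697653-28697902, plus strand, and overlaps no annotated gene. Capitals mark a core of the motif of the hepatocyte factor HNF1 (here on the minus strand) and a cAMP response element core, through which glucagon signalling is known to act on Pck1.
Pck1: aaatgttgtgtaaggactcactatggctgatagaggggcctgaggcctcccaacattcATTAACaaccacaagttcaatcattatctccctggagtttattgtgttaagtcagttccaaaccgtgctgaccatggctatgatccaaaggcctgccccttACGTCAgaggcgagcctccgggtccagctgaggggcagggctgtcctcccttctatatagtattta
Slc2a2: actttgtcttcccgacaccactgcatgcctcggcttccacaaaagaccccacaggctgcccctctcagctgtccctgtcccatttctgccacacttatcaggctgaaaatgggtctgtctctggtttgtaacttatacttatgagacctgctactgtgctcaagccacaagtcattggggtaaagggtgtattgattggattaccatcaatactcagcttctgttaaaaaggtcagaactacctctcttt
Both strands were searched for 4 motifs. The HNF1 core GTTAAT was found in 2 of the 6 genes, Pck1 and Khk, against 6.43% of all 32851 promoter windows. The cAMP response element core ACGTCA was found in Pck1 alone among the 6, at 91 bases before its start, and also in Hk2, against 6.47% of windows. The E-box CACGTG, read by the glucose-sensing factor Mlxipl among others, was found only in Khk of the 6 (6.02% of windows), and the TATA box TATAAA only at the downstream of the 2 Pklr starts (12.4% of windows). No 2 of these matches overlapped. Both Khk matches, at 60 and 71 bases before the start, lay past the first base that GENCODE gives to an exon of Khk. The same held for the Pklr match, at 31 bases before the start, and an exon of Pklr. All matches are descriptions of letters, not binding sites.

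Both gluconeogenic genes had their highest mean in responsive tumors. Pck1, the cytosolic phosphoenolpyruvate carboxykinase of gluconeogenesis, had an FPKM of 0.355, 5.14 and 8.68 in the PBS tumors, 12.2, 6.44 and 3.21 in the nonresponsive tumors, and 73.2, 22.4 and 10.5 in the responsive tumors (replicates 1 to 3 in this order, here and below). Responsive tumor 1 stood far above the rest and the responsive and nonresponsive ranges overlapped, since responsive tumor 3 lay below nonresponsive tumor 1. Responsive and nonresponsive tumors differed by 1.87 ± 0.77 on the log2 scale (SE, n = 3 and 3, limma adjusted p = 0.886), and responsive and PBS tumors by 2.65 ± 0.98 (adjusted p = 0.284). Without responsive tumor 1, the difference from nonresponsive tumors was 1.14.

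Fbp1, fructose-1,6-bisphosphatase, which carries the step opposite to phosphofructokinase, was the most abundant of the 7 genes in responsive tumors, with a mean FPKM of 123.8 ± 30.5 (SD, n = 3). It was at 2.82, 30.5 and 47.4 in PBS tumors, at 98.1, 36.1 and 33.3 in nonresponsive tumors, and at 156.9, 97.0 and 117.5 in responsive tumors. Nonresponsive tumor 1 reached the level of responsive tumor 2, while all 3 responsive tumors lay above all 3 PBS tumors. The difference was 1.29 ± 0.47 against nonresponsive tumors (SE, limma adjusted p = 0.886) and 2.77 ± 0.97 against PBS tumors (adjusted p = 0.281).

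Both glycogen genes were measured at quite different levels and with different patterns. Gys2, the liver glycogen synthase, was the least abundant of the 7 genes in responsive tumors. Its FPKM was 0.147, 2.62 and 3.18 in PBS tumors, 7.60, 2.73 and 2.44 in nonresponsive tumors, and 14.6, 6.46 and 8.89 in responsive tumors. The responsive tumors lay above all PBS tumors, and responsive tumor 2 lay below nonresponsive tumor 1. Responsive and nonresponsive tumors differed by 1.13 ± 0.46 (SE, limma adjusted p = 0.886). Pygl, the liver glycogen phosphorylase, which breaks glycogen down, was at 13.0, 31.7 and 37.3 in PBS tumors, at 78.3, 45.3 and 26.5 in nonresponsive tumors, and at 76.1, 35.0 and 63.0 in responsive tumors. The highest Pygl value of all was in nonresponsive tumor 1, and the responsive range overlapped both other groups. Its differences were the smallest among the 7 genes in both comparisons of responsive tumors, 0.27 ± 0.48 against nonresponsive (SE, limma adjusted p = 0.980) and 1.12 ± 0.49 against PBS tumors (adjusted p = 0.298).

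Pklr and Slc2a2 were the pair whose responsive and nonresponsive ranges did not overlap. Pklr, the pyruvate kinase of liver and red cells and the last step of glycolysis, had an FPKM of 2.09, 9.05 and 6.66 in PBS tumors, 16.4, 4.23 and 5.48 in nonresponsive tumors, and 21.1, 17.9 and 23.7 in responsive tumors. The 3 responsive tumors were close to each other and above all others, with nonresponsive tumor 1 next. The difference was 1.38 ± 0.48 against nonresponsive tumors (SE, limma adjusted p = 0.886) and 1.81 ± 0.46 against PBS tumors (adjusted p = 0.281). Erythroid markers, genes of the red cell precursors in which Pklr is also made, had a summed FPKM of 48.4 to 289.8 in PBS, 79.5 to 464.1 in nonresponsive tumors and 287.2 to 502.5 in responsive tumors over 5 markers, and their part in the Pklr values was not tested.

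Slc2a2, the high-capacity glucose transporter GLUT2 of hepatocytes and islet beta cells, was at 0.255, 5.61 and 3.78 in PBS tumors, at 8.07, 3.94 and 3.09 in nonresponsive tumors, and at 19.4, 11.0 and 9.80 in responsive tumors. Every responsive tumor lay above every other tumor. The difference was 1.29 ± 0.40 against nonresponsive tumors (SE, limma adjusted p = 0.886) and 2.02 ± 0.67 against PBS tumors (adjusted p = 0.281). Of the 4 islet hormone genes, Ins1 and Ins2 were listed at 0 in all PBS and responsive tumors and Gcg was at most 0.260 in any tumor. Ins2 was above 0 in 1 nonresponsive tumor (10.5), and Iapp, the fourth, ran from 25.2 to 32.0 in PBS tumors, 0.509 to 11.7 in nonresponsive tumors and 0 to 20.0 in responsive tumors.

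Khk, ketohexokinase, which phosphorylates fructose, needs care because its entry was merged with the neighbouring matrix gene Emilin1 in 3 of the 9 tumors. The FPKM was 17.1 (merged), 24.4 and 28.0 in PBS tumors, 115.1 (merged), 20.7 and 19.7 in nonresponsive tumors, and 80.7, 85.1 (merged) and 75.5 in responsive tumors. In the 6 tumors with an entry of its own, Khk was at 24.4 to 28.0 in PBS, 19.7 to 20.7 in nonresponsive tumors and 75.5 to 80.7 in responsive tumors, and these ranges, of 2 tumors each, did not overlap. With all tumors, the difference against PBS tumors was 1.78 ± 0.22 (SE, limma adjusted p = 0.0898), the smallest adjusted p of the 7 genes in the 3 comparisons, and against nonresponsive tumors 1.12 ± 0.69 (adjusted p = 0.972). With Khk and Emilin1 joined into 1 locus in all tumors the differences were 1.35 (limma adjusted p = 0.254) and 0.63 (adjusted p = 0.948). The difference from nonresponsive tumors was 0.70 when nonresponsive tumor 3 was left out and 1.94 when nonresponsive tumor 1 was.

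**Figure D1:**
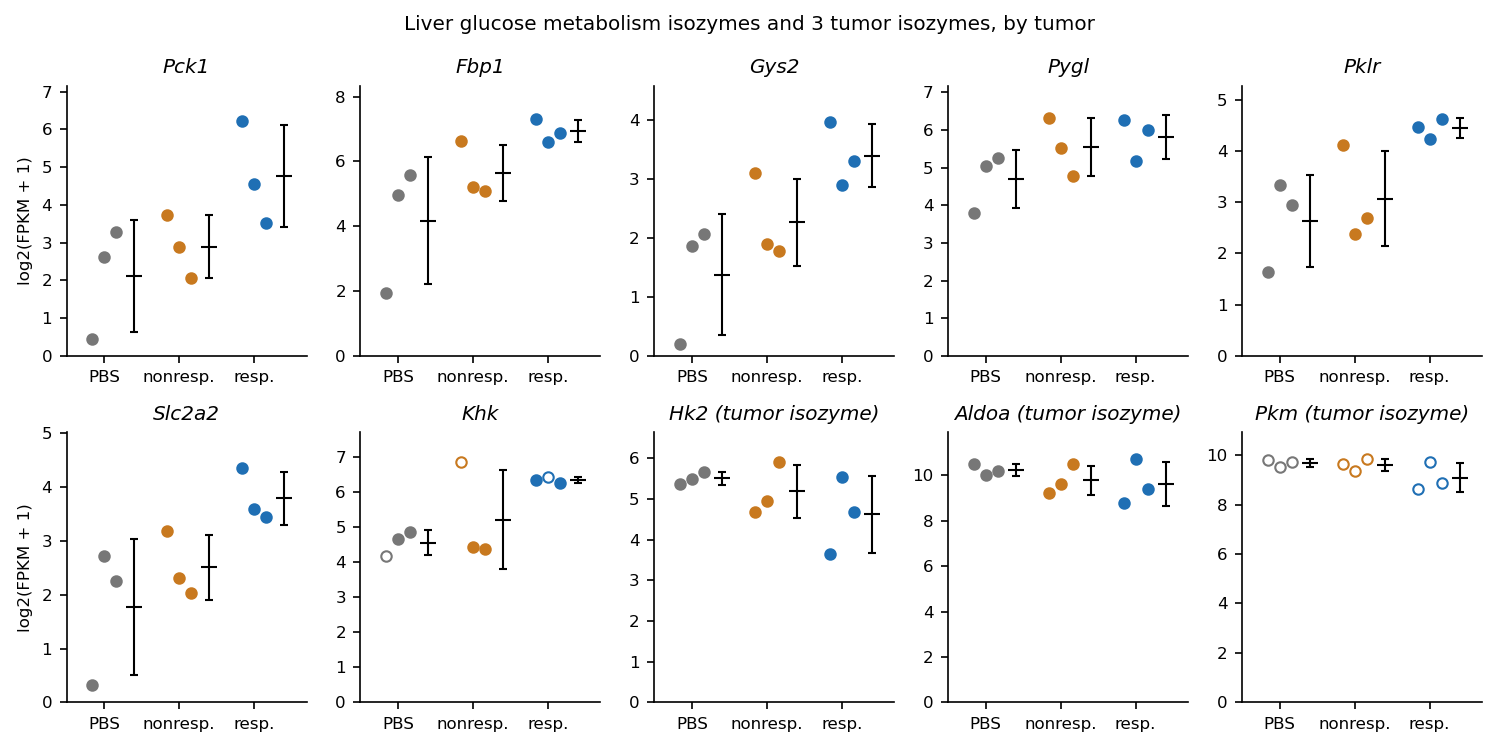
Level of each of the 7 genes and of Hk2, Aldoa and Pkm, as log2(FPKM + 1) on the y axis, in PBS, nonresponsive and responsive tumors. Each point is 1 tumor (replicates 1 to 3 from left to right), bars give mean ± SD over 3 tumors, and open points have an entry shared with another gene (Emilin1 for Khk, Gm49759 for Pkm). PBS tumor 1 is the lowest and responsive tumor 1 the highest tumor for Pck1, Fbp1, Gys2 and Slc2a2.

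Between responsive and nonresponsive tumors all 7 genes had a higher mean in responsive tumors, with a median difference of 1.29 on the log2 scale, where the median of all 13831 genes tested was -0.07. None passed the adjusted test, which called 0.116% of all genes. At an unadjusted p under 0.05, 3 of the 7 were higher (Fbp1, Pklr and Slc2a2), where 4.05% of all genes were higher by that rule, and 2 of the 7 had responsive tumors entirely above nonresponsive ones, where 5.78% of all genes did. The 7 genes were chosen with earlier results of these data known. Setting their counts beside such shares, here and in the comparisons below, is therefore no independent test. The count of 3 went to 0 without responsive tumor 1, without nonresponsive tumor 2 or without nonresponsive tumor 3, and to 6 without nonresponsive tumor 1.

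Between responsive and PBS tumors the median difference was 2.02, where the median of all 13840 genes tested was -0.11. None of the 7 passed the adjusted test, which called 0.231% of all genes. All but Pygl, 6 of 7, were higher at an unadjusted p under 0.05 (8.48% of all genes were), and the same 6 had no overlap between the groups (11.6% of all genes). Without responsive tumor 1, 3 of 7 were higher at that threshold.

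Between nonresponsive and PBS tumors the differences ran from 0.44 for Pklr to 1.48 for Fbp1, with a median of 0.79 against -0.06 over all 13792 genes tested. No gene of the 7 passed the adjusted limma test (0.0798% of all genes did), an unadjusted p under 0.05 (1.51% of all genes were higher by it) or had nonresponsive tumors entirely above PBS tumors (3.23% of all genes). Without PBS tumor 1, the tumor with the lowest levels, the median was 0.30. The 3 comparisons share their tumors in pairs, so they are no independent views of these genes.

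**Figure D2:**
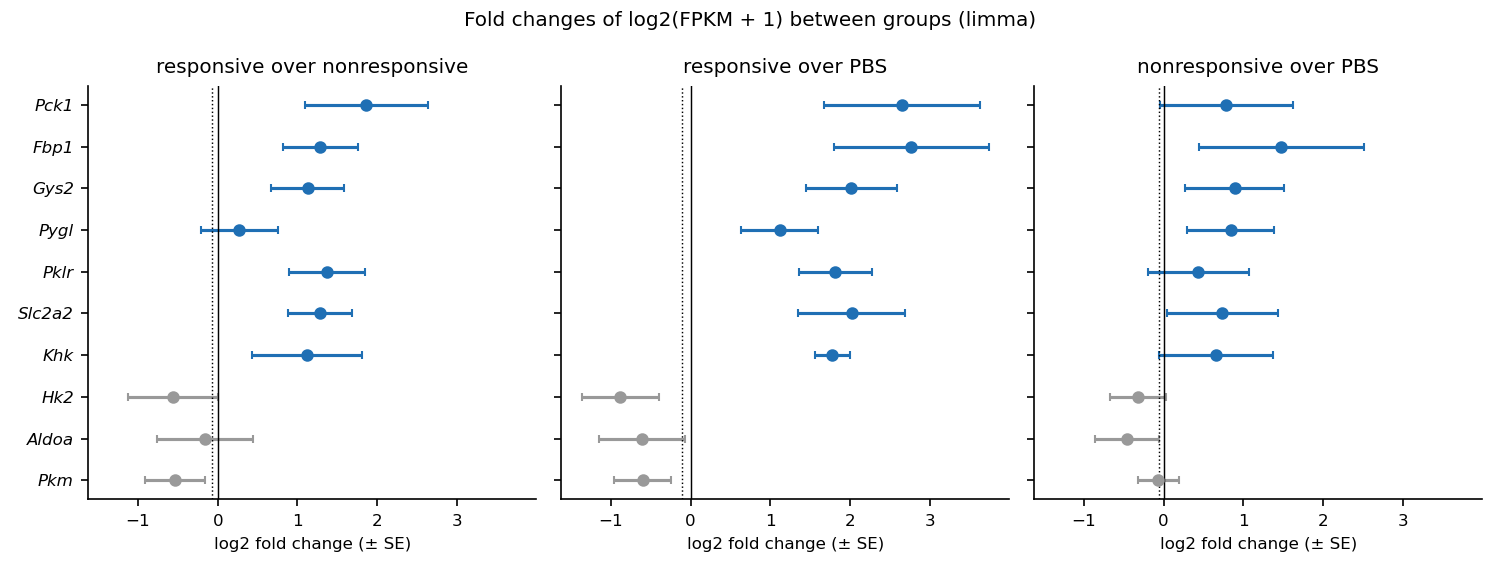
Fold changes on the log2(FPKM + 1) scale (x axis, points with SE from limma, n = 3 and 3) of the 7 genes (blue) and of Hk2, Aldoa and Pkm (grey) in the 3 comparisons of groups. The dotted line is the median of all genes tested. All 7 genes lie to the right of 0 in each comparison, with Pygl the nearest to 0 in both comparisons of responsive tumors, and all 3 tumor isozymes lie to the left.

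Aldoa and Pkm had a higher FPKM than any of the 7 liver isozymes in every tumor. Hk2, the hexokinase induced in many tumors, was at 40.0, 44.3 and 50.1 in PBS tumors, 24.8, 30.1 and 59.5 in nonresponsive tumors and 11.6, 45.8 and 24.6 in responsive tumors. Aldoa, the muscle-type aldolase, was at 1468.5, 1037 and 1158 in PBS, 595.0, 796.3 and 1437 in nonresponsive tumors and 438.7, 1666 and 668.6 in responsive tumors. Pkm, the pyruvate kinase of most proliferating cells, whose entry also names Gm49759 in all 9 tumors, was at 894.6, 727.2 and 839.7 in PBS, 803.4, 653.5 and 908.3 in nonresponsive tumors and 390.6, 852.0 and 470.5 in responsive tumors. Responsive tumor 1 had the lowest value of each of the 3 genes and responsive tumor 2 the highest of its group. The 5 proliferation markers summed to 445, 217 and 363 in PBS tumors and 53.1, 243 and 479 in nonresponsive tumors. In responsive tumors these markers summed to 59.5, 246 and 176. Their part in the values of the 3 genes was not tested. The differences between responsive and nonresponsive tumors were -0.56 ± 0.57 for Hk2, -0.16 ± 0.61 for Aldoa and -0.53 ± 0.38 for Pkm (SE, adjusted limma p of 0.973 or more), and the one for Aldoa changed sign without responsive tumor 1 (0.26) or nonresponsive tumor 3 (0.19). Leaving out responsive tumor 1 gave -0.08 for Hk2 and -0.30 for Pkm, and leaving out responsive tumor 2 gave -1.02 and -0.86. The mean over the 7 liver isozymes minus that over the 3 tumor isozymes, on the log2(FPKM + 1) scale, was -5.43 ± 1.16 in PBS tumors, -4.32 ± 1.25 in nonresponsive tumors and -2.71 ± 1.21 in responsive tumors (SD, n = 3 each). Responsive and nonresponsive tumors overlapped, since responsive tumor 2 (-3.88) lay below nonresponsive tumor 1 (-3.01), and their difference of 1.61 became 0.98 when responsive tumor 1 was left out and 2.27 when nonresponsive tumor 1 was.

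A share that 2 genes split within a tumor does not depend on how FPKM is scaled between tumors, so liver isozymes were each set against a partner isozyme that does the same step elsewhere, in 8 pairs, of which the 6 with a liver form among the 7 genes are described. As a share of the summed FPKM of Pklr and Pkm, Pklr made up 0.234%, 1.23% and 0.787% in PBS tumors, 2.01%, 0.643% and 0.600% in nonresponsive tumors and 5.14%, 2.06% and 4.79% in responsive tumors. Pkm thus held nearly all pyruvate kinase transcript in every tumor, and responsive tumor 2 was only just above nonresponsive tumor 1. Slc2a2 made up 0.523%, 8.98% and 3.85% of its sum with Slc2a1, the transporter GLUT1 of most dividing cells, in PBS tumors, 6.64%, 6.59% and 3.83% in nonresponsive tumors and 27.04%, 13.1% and 18.8% in responsive tumors, where each responsive tumor lay above all others. Gys2 against Gys1, the muscle-type synthase, stood at 1.11%, 16.2% and 16.4% in PBS tumors, 32.6%, 18.0% and 13.8% in nonresponsive tumors and 66.6%, 31.5% and 48.9% in responsive tumors, so that responsive tumor 1 was the one tumor in which the liver form exceeded the other.

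Tests used the log2 ratio of FPKM + 1, which, unlike the share, depends on scaling where FPKM is low. In PBS tumor 1, Gys2 was at 0.147 and Slc2a2 at 0.255. For the 3 pairs above, the exact permutation test of that log2 ratio over the 3 groups gave p = 0.0429 (Pklr over Pkm), 0.0250 (Slc2a2 over Slc2a1) and 0.0286 (Gys2 over Gys1). Each had an adjusted p of 0.110 over the 8 pairs, so none passed after adjustment. The number of pairs under 0.05 before adjustment was 0 without responsive tumor 1 or responsive tumor 3, and 1 without PBS tumor 1 or nonresponsive tumor 2. In 3 against 3 tumors the exact test cannot give less than p = 0.1. The ratio was higher in responsive than in nonresponsive tumors by 1.91 for Pklr over Pkm and 1.81 for Slc2a2 over Slc2a1, both without overlap (exact permutation p = 0.1), and by 1.63 for Gys2 over Gys1 with overlap (exact permutation p = 0.2).

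In the other 3 pairs described, responsive and nonresponsive tumors overlapped. Pck1 made up 44.0% to 88.0% of its sum with the mitochondrial form Pck2 in responsive tumors, 17.1% to 50.8% in nonresponsive tumors and 2.66% to 38.4% in PBS tumors, and Pck2 itself differed by -0.04 on the log2 scale between responsive and PBS tumors. Pygl exceeded the brain form Pygb in 8 of the 9 tumors, PBS tumor 1 being the exception, and this pair had the largest p of the 8 (exact permutation p = 0.282). Fbp2, the muscle form of Fbp1, had an FPKM of at most 0.195 in any tumor, so Fbp1 made up at least 99.4% of that pair.

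**Figure D3:**
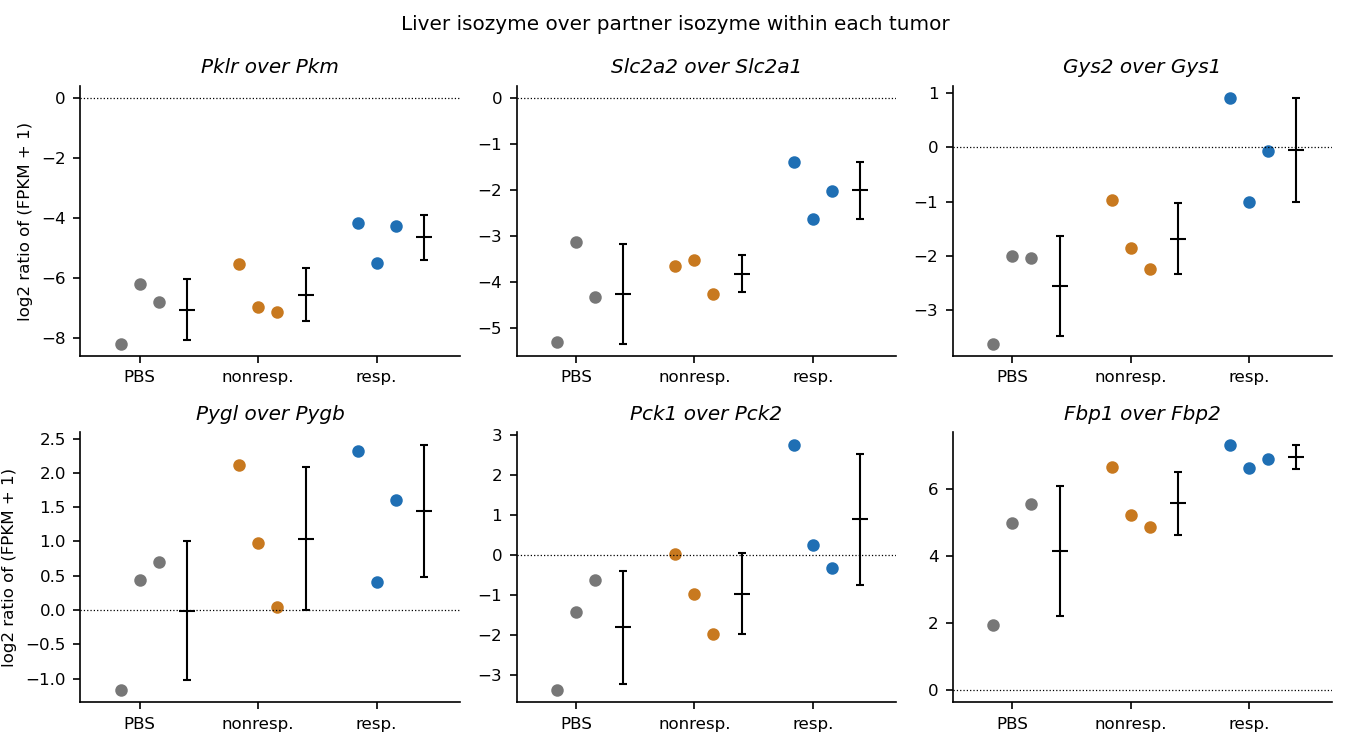
Log2 ratio of liver isozyme to partner isozyme, each as FPKM + 1 (y axis), in 6 pairs, for PBS, nonresponsive and responsive tumors. Points are tumors (replicates 1 to 3 from left to right), bars are mean ± SD (n = 3), and the dotted line marks equal levels. The responsive tumors lie above all nonresponsive tumors for Pklr over Pkm and Slc2a2 over Slc2a1 only among these 6.

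Other genes of the same pathways were read from 5 lists with 25 genes, of which 23 passed the filter on low values. Between responsive and nonresponsive tumors 16 of the 23 had a higher mean and the median difference was 0.72, where 5882 of all 13831 genes had a higher mean. At an unadjusted p under 0.05, 5 of the 23 were higher (4.05% of all genes were), 0 were lower and 0 passed adjustment in limma. Against PBS tumors the 23 genes gave 18 with a higher mean, 10 higher at that threshold (8.48% of all genes were), 0 lower and 0 after adjustment, with a median of 0.92.

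In the list of gluconeogenesis and glucose release, G6pc, the glucose-6-phosphatase that makes free glucose, had the largest difference of all genes in the 5 lists between responsive and nonresponsive tumors. It was at 0.210, 3.01 and 4.33 in PBS tumors, 6.18, 4.59 and 1.26 in nonresponsive tumors and 41.5, 16.8 and 13.4 in responsive tumors. The responsive tumors lay above all others, with a difference of 2.30 ± 0.59 (SE, limma adjusted p = 0.886) from nonresponsive tumors. Pcx, pyruvate carboxylase, which supplies Pck1 with oxaloacetate, differed by 1.00 ± 0.35 (adjusted p = 0.886). Slc37a4, the glucose-6-phosphate carrier, was listed at 0 in nonresponsive tumor 2 and at 12.6 to 21.4 elsewhere, with a ratio of responsive to PBS means of 1.06. The coactivator Ppargc1a was below the filter in all comparisons.

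In the list of uptake and glycolysis, Mlxipl, the transcription factor ChREBP that switches Pklr on at high glucose, was higher in responsive than in nonresponsive tumors by 1.06 ± 0.37 (SE, limma adjusted p = 0.886), with no overlap. Pfkl, the liver-type phosphofructokinase, which many tissues also make, differed by -0.25.

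The 8 glycogen genes were split, with a median difference of -0.01 between responsive and nonresponsive tumors and 0 genes under an unadjusted limma p of 0.05 in either direction. Ugp2 and Pgm2, used for glycogen in many tissues, and Phka2, of phosphorylase kinase, differed by between -0.13 and 0.04. Ppp1r3c, which targets a phosphatase to glycogen, differed by 0.73 from nonresponsive and by 1.71 from PBS tumors. Phkg2 shares its entry with other genes in PBS tumor 2 and was listed at 0 in nonresponsive tumor 3. Of the fructose and polyol genes, Sord, which makes fructose from sorbitol, differed by 1.48 ± 0.49 from nonresponsive tumors with no overlap (SE, limma adjusted p = 0.886), and the intestinal fructose transporter Slc2a5 by -0.19. Tkfc was listed at 0 in 7 tumors and was not tested. Among the hormone genes, the glucagon receptor Gcgr differed by 1.28 from nonresponsive and by 2.46 from PBS tumors, while the insulin receptor Insr differed by -0.07 and -0.18.

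The mean of the 7 genes was highest and lowest in the same tumors as the mean of the hepatocyte markers. The mean log2(FPKM + 1) of the 16 hepatocyte markers was 6.01 ± 1.51 in PBS, 7.34 ± 0.80 in nonresponsive tumors and 8.54 ± 0.51 in responsive tumors (SD, n = 3 each), and that of the 7 genes was 3.05 ± 1.09, 3.88 ± 0.85 and 5.07 ± 0.43. Taken as the difference from the hepatocyte markers of the same tumor, the mean of the 7 genes stood at -2.96 ± 0.44, -3.46 ± 0.14 and -3.47 ± 0.18, and the SD over all 9 tumors was 0.353, where it was 1.14 before the markers were subtracted. Of the 7 genes taken singly, that SD changed least in Khk (1.07 before, 0.812 after) and in Pygl (0.797 before, 0.733 after). All 16 hepatocyte markers had a higher mean in responsive than in nonresponsive tumors, 6 of them at an unadjusted limma p under 0.05 (4.05% of all genes were higher by it) and 0 after adjustment, with a median difference of 1.33. The part of the hepatocyte level in the values of the 7 genes was not tested. The 4 oncofetal markers, which hepatoma cells make, had a summed FPKM of 38.0 to 47.7 in PBS, 24.3 to 103.2 in nonresponsive tumors and 11.3 to 68.7 in responsive tumors. H19 alone of the 4 lay entirely lower in responsive (3.01 to 11.0) than in nonresponsive tumors (15.7 to 39.3). Its limma adjusted p was 0.886, and 656 of all 13831 genes lay entirely lower. Of the 4, 1 had a higher mean in responsive tumors.

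Pygl did not keep step with the hepatocyte markers, a comparison made after the values were seen. Relative to them it was at -0.48, -1.58 and -1.87 in PBS tumors, -1.91, -1.61 and -1.87 in nonresponsive tumors and -2.79, -2.88 and -2.49 in responsive tumors. All 3 responsive tumors lay below all 6 other tumors. The exact permutation test over 3 groups gave p = 0.0107, with an adjusted p of 0.129 over the 12 genes so treated. The 5 macrophage markers, a cell type in which Pygl is also made, had a summed FPKM of 933 to 2904 in PBS, 2211 to 5722 in nonresponsive tumors and 2134 to 7663 in responsive tumors. Hk3, a hexokinase of myeloid cells, was at 6.95, 32.0 and 23.6 in PBS tumors, 89.4, 28.7 and 23.3 in nonresponsive tumors and 32.8, 20.5 and 28.0 in responsive tumors. Its highest value was in nonresponsive tumor 1, while the highest macrophage sum was in responsive tumor 1. Most of that sum was 1 gene, Lyz2 (6745). Adgre1, Csf1r and Cd68 had their highest values in nonresponsive tumors, C1qa and Lyz2 in responsive tumors. Of the 5 markers, 1 had a higher mean in responsive than in nonresponsive tumors, and the median difference was -0.34. The part of the macrophage markers and Hk3 in the Pygl values was not tested.

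G6pc, which is not among the 7, was the one other gene of the 12 whose relative level did not overlap between responsive and nonresponsive tumors, at -3.65, -3.90 and -4.64 against -5.38, -4.66 and -5.47 (exact permutation p = 0.1, adjusted p over 3 groups 0.163), and its lowest responsive and highest nonresponsive tumor lay next to each other. Pck1 relative to the markers differed by 0.67 and Fbp1 by 0.09, with overlap.

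**Figure D4:**
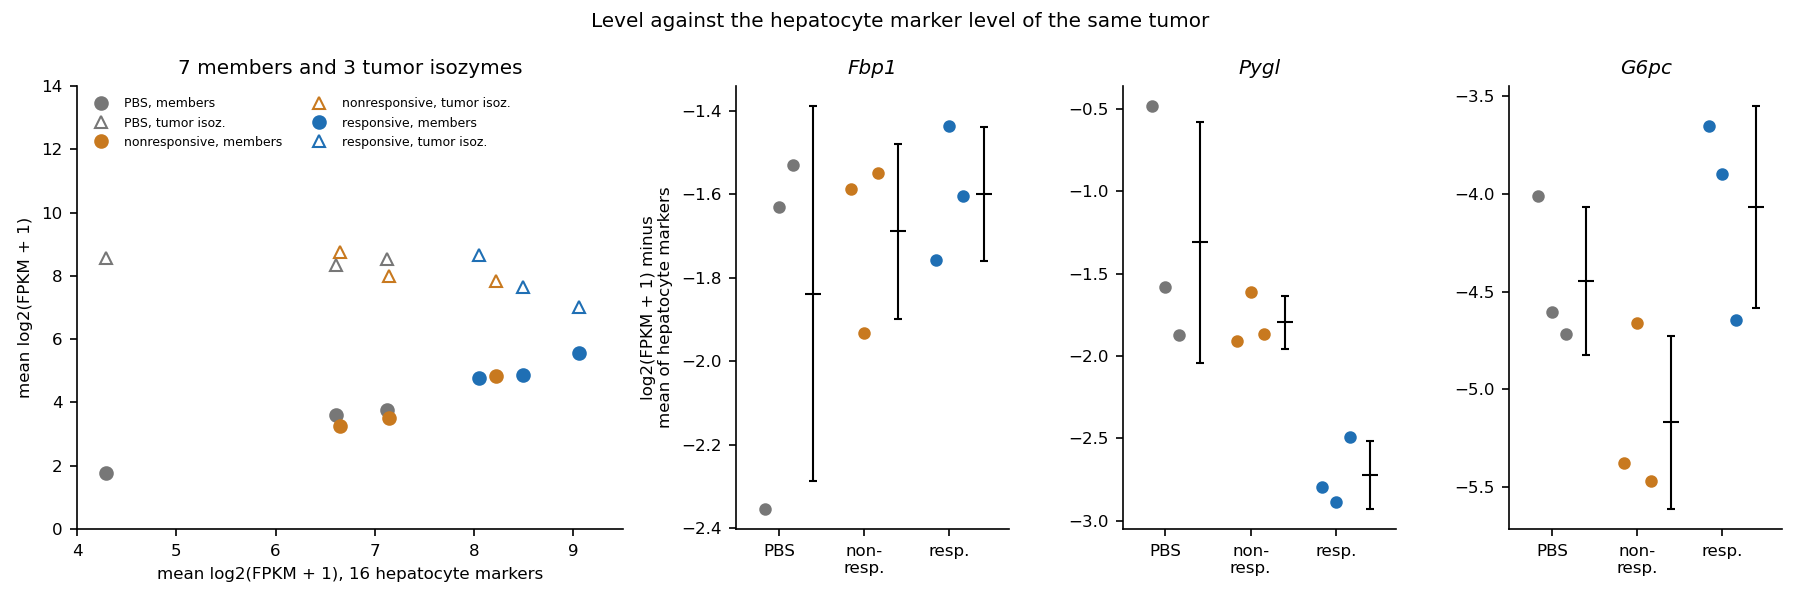
Left, mean log2(FPKM + 1) of the 7 genes (filled circles) and of Hk2, Aldoa and Pkm (open triangles) against the mean of 16 hepatocyte markers, 1 point per tumor. Right, Fbp1, Pygl and G6pc minus that marker mean, with mean ± SD (n = 3). The mean of the 7 genes climbs with the markers from PBS tumor 1 (1.79 at 4.29) to responsive tumor 1 (5.56 at 9.06), and relative Pygl is lowest in the 3 responsive tumors.

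The genes outside these lists whose profile over the 9 tumors lay nearest to the mean of the 7, among 7895 genes with a mean FPKM of at least 10, were Fxyd1, Slc22a18, Proc, Bhmt2 and Slc6a13. Their mean absolute difference from it, after centring on the log2 scale, was 0.07 to 0.13. Proc encodes protein C, a clotting inhibitor made by hepatocytes, and Bhmt2 a methyltransferase of liver methionine metabolism. For single genes the nearest were the major urinary protein gene Mup21 for Pck1 (0.31), prothrombin F2 for Fbp1 (0.07), proline dehydrogenase Prodh for Pklr (0.20), Slc22a18 for Gys2 (0.10), Ndrg2 for Slc2a2 (0.17) and the creatine synthesis enzyme Gamt for Khk (0.26). For Pygl it was Msrb1 (0.09), a methionine sulfoxide reductase, with a mean FPKM of 120.6 in PBS, 210.7 in nonresponsive tumors and 267.2 in responsive tumors.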

How the data were processed

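The members and gene lists were chosen with earlier results of these data known. For each of 9 tumors the authors deposited a table of FPKM per gene, made by Cufflinks with transcripts assembled tumor by tumor. The submitters' processing notes name TopHat2 2.1.1, Bowtie2 2.2.4 and the build mm8, but the tables' coordinates did not match the annotation at hand and none is printed. A series table holds the authors' Cuffdiff fold changes and p-values for the 3 comparisons of groups and was not used.

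FPKM was summed over the entries naming a symbol, and symbols with identical values were taken as 1 feature. Log2(FPKM + 1) was compared with limma 3.58.1 in R 4.3.3 (lmFit, eBayes with trend, two-sided) on 6 tumors a comparison, for genes that reached an FPKM of 1 in 3 or more of the 6, with Benjamini-Hochberg adjustment over all of them, and was checked on simulated data. Ratios were compared by exact two-sided permutation tests in Python 3.11.15. Genes named are the 7 members, Hk2, Aldoa, Pkm, partner isozymes, 5 pathway lists and the nearest profiles. Markers of proliferation, muscle, pancreas, fat, T cells, fibroblasts and endothelium were also summed. Some genes of these pairs and lists are counted but not reported here by name.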

Additional observations from a re-analysis of the deposited data

How the results depend on the processing

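Without an adjusted call to lose, the counts at an unadjusted p under 0.05 show what the settings do. For responsive over nonresponsive tumors the count of 3 of 7 became 1 with all 9 tumors in 1 fit, 5 with genes that share an entry joined into 1 locus, and 5 with the replicate number as a block. Leaving out 1 tumor at a time, it ran from 0 to 6, that for responsive over PBS tumors from 3 to 7 and that for nonresponsive over PBS tumors stayed at 0, and the number of isozyme pairs under 0.05 ran from 0 to 3. Same-number correlations of deviations from the group means lay between -0.39 and 0.48. Those of tumors with different numbers lay between -0.47 and 0.46, so the replicate numbers were not shown to pair the tumors. Some single values changed sign when 1 tumor was left out, and their ranges over such fits follow. Between responsive and nonresponsive tumors Aldoa ran from -0.70 to 0.26 (0.19 without nonresponsive tumor 3), Pygl from -0.11 to 0.66 and the log2 ratio of Pygl to Pygb from -0.10 to 0.94 (-0.04 without responsive tumor 1). Between nonresponsive and PBS tumors Pck1 ran from -0.048 to 1.37, Pklr from -0.090 to 0.79 (-0.064 without PBS tumor 1), Khk from -0.16 to 1.08 and Pkm from -0.17 to 0.063. The cause was not tested. A pseudocount of 0.1, no filter or one at FPKM 5, upper-quartile scaling, scaling by named entries and robust eBayes changed no count of the 7 genes by over 1.5 times, and the pseudocount raised the median of nonresponsive over PBS tumors from 0.79 to 1.22. Scaling to equal sums of named entries moved the median of all genes by -0.17 for responsive over nonresponsive tumors and by -0.13 for responsive over PBS tumors, and under it, as under upper-quartile scaling, the 7 genes kept a higher mean and Hk2, Aldoa and Pkm a lower one in each comparison. Chosen after seeing the data, leaving out Khk gave a median of 1.29 for responsive over nonresponsive tumors, and leaving out nonresponsive tumor 1 with responsive tumor 2 gave 1.90. The absolute depth is unknown, and the lowest FPKM values, such as those of PBS tumor 1, are the least precise.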

Other observations

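Several tumors held RNA of tissues that the groups do not explain. Nonresponsive tumor 2 had a summed FPKM of 886 over 6 pancreatic acinar genes, where no other tumor exceeded 0.354, and 52.0 over 4 adipocyte genes. The detected skeletal muscle markers summed to 211.0 in nonresponsive tumor 3 and 77.2 in PBS tumor 1, and to between 2.31 and 16.7 in 6 of the others. In responsive tumor 2 the sum of 75.2 was nearly all 1 gene, Tnnt3 (74.8), while Myh4 was listed at 0 and Ckm was at most 0.532 in all responsive tumors. Fibroblast markers summed to 2340 to 2396 in responsive tumors, below all nonresponsive tumors (2704 to 4418) and all PBS tumors (2483 to 3884). Taken singly, 0 of the 5 fibroblast genes lay entirely lower in responsive than in nonresponsive tumors (656 of all 13831 genes did). T cell markers summed to 77.1 to 110.8 in responsive tumors, above all nonresponsive tumors (63.5 to 70.0) but overlapping PBS tumors (28.1 to 107.7). Singly, 2 of the 5 T cell genes lay entirely higher in responsive than in nonresponsive tumors (5.78% of all genes did). Cd8a was at 2.46, 19.1 and 22.8 in responsive tumors (from lowest to highest) and at 4.70 to 6.77 in nonresponsive tumors, so the groups overlapped. Endothelial markers overlapped between all groups, at 49.6 to 124.5. Pck1, which fat also makes, was at 6.44 in the tumor with the adipocyte genes, and Pygm, the muscle glycogen phosphorylase, was at 6.16 in nonresponsive tumor 3 and at most 2.00 elsewhere.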
